A study of Mus musculus with 12 samples.

Results

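The genes described here mark neural progenitors and radial glia, the dividing cells of the embryonic brain that give rise to neurons and glia. The 9 genes are Sox2, Nes, Vim, Notch1, Hes1, Gli2, Gli3, Fabp7 and Ptprz1. They were chosen by name, with earlier results of these data known. All 9 were found among the 12774 gene symbols of the deposited table. The cells were mouse C17.2 cells, which are neural progenitors grown as a line, with a tagged thyroid hormone receptor added stably, the beta receptor in C17.2b and the alpha receptor in C17.2a. They were treated with T3 (triiodothyronine, the active thyroid hormone) or left untreated, and RNA was taken at 3 times, giving 12 libraries with 1 for each combination of line, treatment and time. The groups were C17.2b with T3 at 1e-07 M for 6, 12 or 24 h, C17.2b left untreated for 6, 12 or 24 h, C17.2a with T3 at the same dose and times, and C17.2a left untreated for the same times. All cells had spent 24 h in serum-free medium beforehand, so every group lacked serum. The labels do not say whether a line is 1 clone, and each line carries an added receptor, so no library shows the parent cells.

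In progenitors, a core of transcription factors and signalling pathways keeps cells dividing and undifferentiated. Sox2 is the transcription factor most closely tied to that state, Notch receptors hold neighbouring cells back from becoming neurons by switching on repressors of the Hes family, and Gli factors carry the hedgehog signal to the nucleus. Nestin and vimentin form the intermediate filaments of radial glia, Fabp7 carries fatty acids in those cells, and Ptprz1 is a receptor phosphatase on their surface. Thyroid hormone is known to drive the maturation of neurons and glia in the developing brain.

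No group had a second library. Each T3 library was paired with the untreated one of its line and time, and the 6 pairs stood in for repeats. The labels do not say that they came from separate cultures, so p-values reflect only how much these pairs vary, which may be technical. Levels are in RPM, the sequence tags of a gene scaled to a total shared by all libraries, and a gene's RPM was not compared with that of another gene because tag yield differs between genes. The implied depth was 7.12e+06 to 1.91e+07 tags per library, and 3 tags corresponded to 0.157 to 0.421 RPM, a limit that covers counting error only. All 9 genes were listed with a value in all 12 libraries and passed the filter on low values. Log2 fold changes are on the log2(RPM + 1) scale, which understates the change of low genes, and the error is the standard error (SE) of a limma fit. Adjusted p refers to the Benjamini-Hochberg method over all genes tested, with a threshold of 0.05.

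The C17.2a T3 24 h library stood apart from the others: in its pair 19.9% of the genes with at least 50 implied tags were at least 2-fold lower with T3, against 1.24% to 2.11% in the other 5 pairs. The shared T3 results of the 9 genes and the list counts are also given without that pair, the list counts as an alternative chosen after seeing the data. In that fit 9.14% of all genes tested were higher and 5.81% lower with T3. Neural progenitor markers were also summed, which is no separate check of that label because most of them are among the 9 genes. Of 10 progenitor markers 8 were analysed, 6 of them among the 9 genes, and their summed level was 1387 to 3119 RPM with T3 and 2355 to 5799 RPM untreated. Most tags in that sum were those of vimentin, and the RNA-binding protein Msi1 lay at 0 to 4.35 RPM. Such sums add genes of unlike tag yield, so they describe tags and do not rank genes or cell types. Sox1 and Pax6, which define many neural progenitors, were not analysed here because their symbols were not found among those of the deposited table. Genes of other lineages were also detected. The 5 fibroblast markers, mostly collagens, summed to 2267 to 10529 RPM with T3 and 2647 to 8120 RPM untreated. Sox10, a factor of neural crest and oligodendrocyte cells, was at 135 to 759 RPM with T3 and 217 to 746 RPM untreated. Summed markers overlapped between treatments also for neurons (3 of 8 listed, 62.5 to 621 RPM with T3 and 97.1 to 367 RPM untreated), astrocytes (4 of 6, 211 to 275 RPM and 180 to 273 RPM) and the oligodendrocyte lineage (6 of 8, 241 to 949 RPM and 317 to 865 RPM), and their part in the T3 results was not tested. Endothelial markers were not analysed here, as their symbols were not found either. The 1 microglial marker analysed, Cx3cr1, was at 0.18 RPM or less with T3 and at 0.42 RPM or less untreated. Fewer cells of a type and less RNA per cell cannot be told apart in such pooled cultures.

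**Figure D1:**
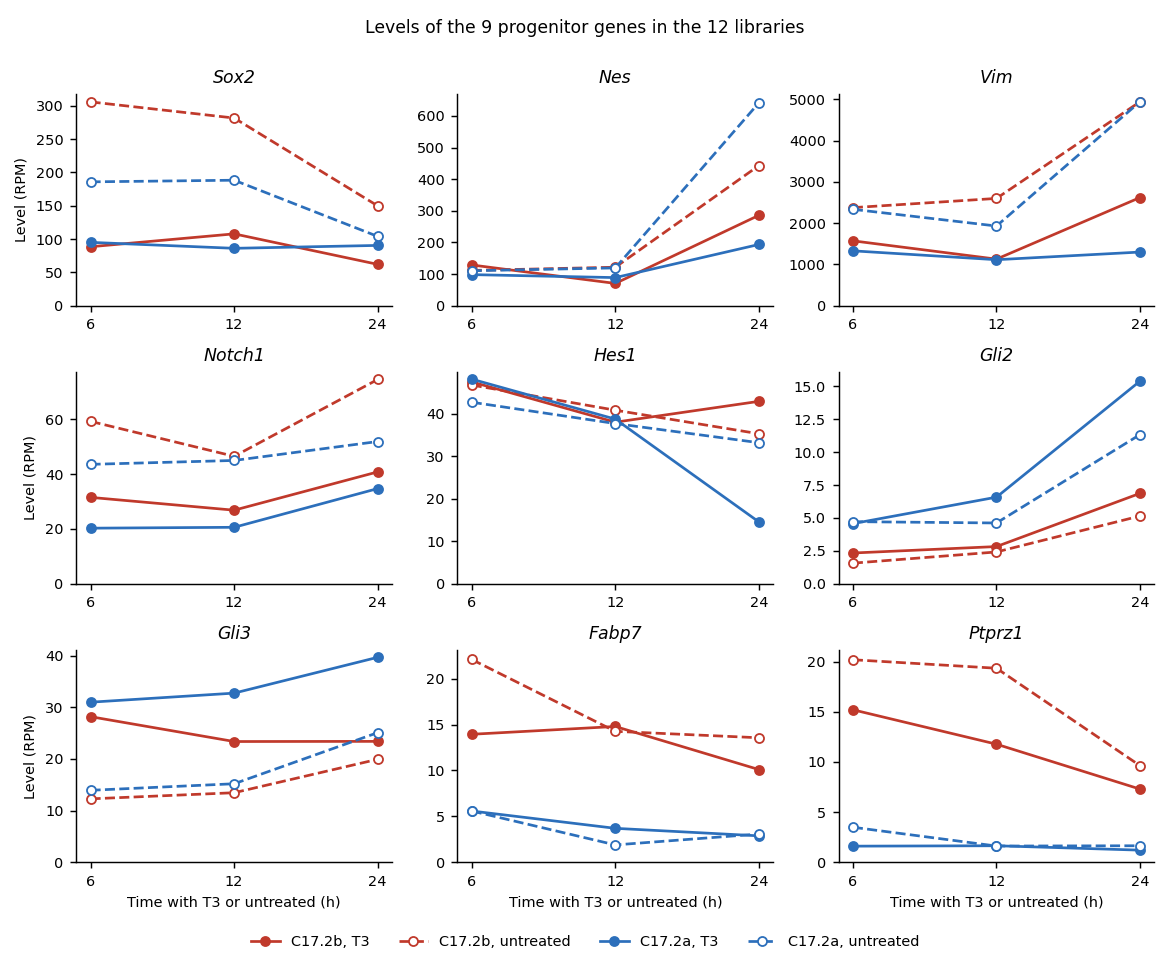
Levels of the 9 genes in RPM on a linear axis from 0, against time in hours, 1 point per library. Filled points and solid lines are T3, open points and dashed lines untreated, with C17.2b in red and C17.2a in blue; Sox2 with T3 lies between 62.0 and 107.8 RPM in both lines, Nes is highest in the untreated 24 h libraries, and Ptprz1 and Fabp7 are higher in C17.2b.

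Sox2, Vim and Notch1 fell and Gli3 rose with T3 over the 6 pairs. The fitted fold was 0.461 for Sox2, 0.486 for Vim and 0.546 for Notch1, and 1.76 for Gli3, on the log2(RPM + 1) scale. Of the 9 genes tested, 1 was higher and 3 were lower with T3 in limma, where 4.09% of all 10577 genes tested were higher and 2.35% lower. The median log2 fold change of the 9 genes was -0.41, against -0.01 for all genes tested. Because the 9 genes were chosen with earlier results of these data known, these counts and medians describe them only. They are no test of an excess over all genes. The other 5 genes, Nes, Hes1, Gli2, Fabp7 and Ptprz1, did not pass. Over the alternatives listed in the processing notes, the adjusted p in limma was 2.06e-05 to 0.0378 for Sox2, 4.37e-05 to 0.0275 for Notch1, 0.0015 to 0.0491 for Gli3 and 9.93e-05 to 0.123 for Vim.

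The promoters of the 4 genes that passed with T3 are shown, from the 8 genes of the 9 that were matched by symbol. Each sequence runs from 250 bases before to 50 bases after the start of the gene, as RefSeq gives it on GRCm38.p6, a later build than the mm9 of the authors' table, and is written in the direction of the gene. Capitals mark matches, on either strand, to AGGTCA, the half-site that thyroid hormone receptors bind, to TGGGAA, the core of the site of the Notch partner RBPJ, to GACCACCCA, the site of Gli factors, or to ACAATG, a core of SOX sites.
Sox2, chr3:34649745-34650044, plus strand: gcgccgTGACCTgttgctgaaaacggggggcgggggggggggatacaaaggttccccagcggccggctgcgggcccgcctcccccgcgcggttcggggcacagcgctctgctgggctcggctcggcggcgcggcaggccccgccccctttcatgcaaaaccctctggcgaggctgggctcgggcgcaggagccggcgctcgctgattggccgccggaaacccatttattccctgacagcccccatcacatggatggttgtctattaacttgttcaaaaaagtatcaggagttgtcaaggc
Vim, chr2:13574061-13574360, plus strand: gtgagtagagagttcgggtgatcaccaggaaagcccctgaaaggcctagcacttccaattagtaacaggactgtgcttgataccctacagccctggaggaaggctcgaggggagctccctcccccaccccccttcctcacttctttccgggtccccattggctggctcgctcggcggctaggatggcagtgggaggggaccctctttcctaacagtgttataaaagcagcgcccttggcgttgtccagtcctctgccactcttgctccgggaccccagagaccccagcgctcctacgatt
Notch1, chr2:26503773-26504072, minus strand: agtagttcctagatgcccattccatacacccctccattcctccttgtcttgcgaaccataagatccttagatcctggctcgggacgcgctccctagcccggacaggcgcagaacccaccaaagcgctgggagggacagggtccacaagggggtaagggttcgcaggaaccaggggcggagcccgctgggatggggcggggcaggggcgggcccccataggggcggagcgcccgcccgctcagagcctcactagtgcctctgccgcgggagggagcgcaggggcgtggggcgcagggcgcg
Gli3, chr13:15463473-15463772, plus strand: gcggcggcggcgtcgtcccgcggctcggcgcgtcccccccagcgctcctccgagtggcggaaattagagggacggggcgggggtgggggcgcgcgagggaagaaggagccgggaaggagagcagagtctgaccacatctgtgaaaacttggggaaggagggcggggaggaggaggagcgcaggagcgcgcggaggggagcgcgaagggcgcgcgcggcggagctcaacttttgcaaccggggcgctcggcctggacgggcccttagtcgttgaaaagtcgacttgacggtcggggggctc

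Sox2 held 1 half-site in reverse orientation, TGACCT, at position -244 from the start of the gene. Vim, Notch1 and Gli3 held none of the 4 motifs in this window. A half-site occurs in 16.3% of 32851 promoters of this length, the RBPJ core in 25.6%, the SOX core in 12.6% and the Gli site in 0.253%, with both strands read. A match describes letters only. The GC content of these 4 promoters was 66.3% for Sox2, 59.3% for Vim, 68.3% for Notch1 and 71.0% for Gli3, against a median of 52.7% for all promoters.

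Sox2, the transcription factor at the centre of the progenitor state, was lower with T3 in all 6 pairs. In C17.2b it stood at 88.42, 107.78 and 61.96 RPM with T3 at 6, 12 and 24 h, against 305.94, 281.70 and 149.75 RPM untreated. In C17.2a the levels were 95.02, 86.06 and 90.41 RPM with T3 at those times, against 185.87, 188.33 and 103.91 RPM untreated. The 6 T3 libraries lay close together, and the groups overlapped only because the C17.2b T3 12 h library was above the C17.2a untreated 24 h library. The shared log2 fold change was -1.12 (SE 0.18, n = 6 pairs), with an adjusted p of 0.00663 in limma, and -1.30 without the C17.2a 24 h pair, with an adjusted p of 2.06e-05.

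Notch1, the receptor through which neighbouring progenitors restrain each other, was lower with T3 in every pair by a similar amount. In C17.2b it had 31.50, 26.83 and 40.79 RPM with T3 at 6, 12 and 24 h, against 59.19, 46.46 and 74.47 RPM untreated. In C17.2a it had 20.28, 20.60 and 34.71 RPM with T3, against 43.53, 44.95 and 51.85 RPM untreated. All 6 T3 libraries were below all 6 untreated libraries. The shared log2 fold change was -0.87 (SE 0.10), with an adjusted p of 0.00162 in limma, the smallest among the 9 genes, and the value was -0.93 without the C17.2a 24 h pair (adjusted p of 4.37e-05 in limma).

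Hes1, the repressor that Notch signalling switches on, did not follow its receptor. It had 47.46, 37.99 and 42.89 RPM in C17.2b with T3 at 6, 12 and 24 h, against 46.72, 40.81 and 35.27 RPM untreated. In C17.2a it had 48.11, 38.71 and 14.55 RPM with T3, against 42.68, 37.67 and 33.17 RPM untreated. The T3 and untreated values lay within 1.22-fold of each other in 5 pairs, and the C17.2a T3 24 h library alone was low. The shared log2 fold change was -0.12 (SE 0.18), with a 95% interval of -0.53 to 0.28 and an adjusted p of 0.792 in limma. Without the C17.2a 24 h pair it was 0.08 (adjusted p of 0.596 in limma).

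Other genes of the Notch pathway gave no call with T3 over the 6 pairs. Of 39 genes listed, 28 were tested, and 0 were higher and 0 lower in limma, where 4.09% of all genes tested were higher and 2.35% lower. At an unadjusted p under 0.05 in limma there were 5 of the 28, and 1913 of all 10577 genes. The median log2 fold change of the 28 was -0.12, against -0.01 for all genes tested. Without the C17.2a 24 h pair 2 were higher and 1 was lower in limma, Adam10 (0.34, SE 0.10), Aph1b (0.48, SE 0.13) and Notch4 (-0.65, SE 0.12), and the median was 0.10. The shares of all genes in that fit were 9.14% higher and 5.81% lower. The ligand gene Dll1 changed by -0.19 (SE 0.18), the receptor gene Notch2 by -0.05 (SE 0.26), the DNA-binding partner Rbpj by 0.12 (SE 0.13) and the target gene Hey1 by 0.13 (SE 0.17). Lfng, which modifies Notch receptors, was at 4.79, 4.52 and 14.30 RPM in C17.2b with T3 and at 5.86, 8.28 and 0.12 RPM in C17.2a with T3, against 4.19, 4.22 and 15.33 RPM and 7.81, 7.55 and 22.15 RPM in the untreated libraries of C17.2b and C17.2a. Only its C17.2a 24 h pair was far apart, and its log2 fold change was -0.75 (SE 0.56).

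Vim, the gene of the intermediate filament protein vimentin, was lower with T3 in all 6 pairs, and most so in the C17.2a 24 h pair. Its levels in C17.2b were 1569.87, 1126.40 and 2618.82 RPM with T3 at 6, 12 and 24 h, against 2373.82, 2597.20 and 4939.67 RPM untreated. In C17.2a they were 1327.28, 1112.07 and 1297.76 RPM with T3, against 2333.87, 1928.29 and 4940.95 RPM untreated. The untreated level of 24 h was about the same in both lines, while the C17.2a T3 24 h library stayed near the earlier T3 libraries. The shared log2 fold change was -1.04 (SE 0.16), with an adjusted p of 0.00591 in limma, and -0.86 without the C17.2a 24 h pair (adjusted p of 9.93e-05 in limma). With no block for the pairs, the call was lost (adjusted p of 0.123 in limma).

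Nes, the gene of nestin, the filament protein by which neural progenitors are most often recognised, varied more with time than with T3. In C17.2b it had 128.64, 70.23 and 285.81 RPM with T3 at 6, 12 and 24 h, against 111.36, 121.52 and 443.14 RPM untreated. In C17.2a it had 98.10, 88.68 and 193.47 RPM with T3, against 110.33, 119.30 and 641.71 RPM untreated. The T3 library was the lower one in 5 of 6 pairs, the C17.2b 6 h pair being the exception, and the groups overlapped widely. Its shared log2 fold change was -0.59 (SE 0.21) and did not pass (adjusted p of 0.176 in limma), and it was -0.36 without the C17.2a 24 h pair, with an adjusted p of 0.0848.

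Among other intermediate filament genes, 0 of 8 tested rose and 2 fell in limma, where 4.09% of all genes tested were higher and 2.35% lower. The 2 that fell were neurofilament genes, which are expressed in neurons. Nefm had 1.60, 0.80 and 0.28 RPM in C17.2b with T3 at 6, 12 and 24 h and 0.50, 0.28 and 0.24 RPM in C17.2a with T3, against 6.02, 4.39 and 2.31 RPM and 4.10, 3.29 and 2.45 RPM in the untreated libraries of C17.2b and C17.2a. Its log2 fold change was -1.56 (SE 0.13, adjusted p of 0.000262 in limma), and that of Nefl was -0.82 (SE 0.18, adjusted p of 0.0257). Nefl had 0.53, 0.27 and 0.42 RPM in C17.2b with T3, against 2.62, 1.88 and 0.68 RPM untreated. In C17.2a it had 0.50, 0.85 and 0.24 RPM with T3, against 2.32, 1.42 and 1.02 RPM untreated. The values of Nefm in both T3 24 h libraries and of Nefl in the C17.2a T3 24 h library lie under the level of 3 tags. The size of both changes is therefore uncertain. The list, which does not contain Nes or Vim, had a median of -0.33. Without the C17.2a 24 h pair 1 of the 8 was higher and 4 were lower, Nefm and Nefl among them. The shares of all genes in that fit were 9.14% higher and 5.81% lower.

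Gli3, a hedgehog pathway factor that acts mainly as a repressor when no hedgehog signal is present, rose with T3 and was higher in all 6 pairs. In C17.2b it had 28.20, 23.38 and 23.41 RPM with T3 at 6, 12 and 24 h, against 12.26, 13.45 and 19.94 RPM untreated. In C17.2a it had 31.01, 32.77 and 39.72 RPM with T3, against 13.92, 15.19 and 25.11 RPM untreated. The ratio was over 2 in the 6 h pairs of both lines and in the C17.2a 12 h pair, and smallest in the C17.2b 24 h pair at 1.17. The shared log2 fold change was 0.82 (SE 0.14), with an adjusted p of 0.0099 in limma, and 0.86 without the C17.2a 24 h pair (adjusted p of 0.0015 in limma).

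Gli2, the main activator among the Gli factors, had 2.34, 2.83 and 6.87 RPM in C17.2b with T3 at 6, 12 and 24 h, against 1.57, 2.42 and 5.15 RPM untreated. In C17.2a it had 4.57, 6.58 and 15.39 RPM with T3, against 4.72, 4.62 and 11.33 RPM untreated. It was higher with T3 in 5 of 6 pairs, by less than 1.5-fold in each, and its shared log2 fold change of 0.28 (SE 0.12) did not pass (adjusted p of 0.275 in limma), nor did that of 0.26 without the C17.2a 24 h pair (adjusted p of 0.204). Of 23 other hedgehog pathway genes listed, 15 were tested. In limma 1 was higher and 0 were lower, against 2 and 0 without the C17.2a 24 h pair. The shares of all genes tested were 4.09% higher and 2.35% lower, and 9.14% and 5.81% without that pair. The gene that rose was Cdon, a coreceptor for hedgehog ligands, at 0.69 (SE 0.11, adjusted p of 0.00708), with 55.97, 79.35 and 99.52 RPM in C17.2b with T3 and 161.91, 195.05 and 206.11 RPM in C17.2a with T3, against 32.37, 35.43 and 67.55 RPM and 113.04, 149.77 and 117.28 RPM untreated. Gli1, a target gene of the pathway, was at 0.50 to 3.22 RPM with T3 and 0.46 to 2.31 RPM untreated and had a log2 fold change of 0.01 (SE 0.14), and the signal transducer Smo had 0.16 (SE 0.12).

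Fabp7 and Ptprz1 did not pass with T3. Fabp7 had 13.94, 14.79 and 10.09 RPM in C17.2b with T3 at 6, 12 and 24 h, against 22.10, 14.26 and 13.56 RPM untreated, and in C17.2a 5.57, 3.68 and 2.86 RPM with T3, against 5.57, 1.87 and 3.06 RPM untreated. Its log2 fold change was -0.06 (SE 0.18), with a 95% interval of -0.45 to 0.34 and an adjusted p of 0.913 in limma, and it was -0.05 without the C17.2a 24 h pair (adjusted p of 0.879). Of other fatty acid binding protein genes 2 were tested and both fell with T3, Pmp2 at -1.69 (SE 0.29, adjusted p of 0.0099 in limma) and Fabp5 at -0.60 (SE 0.11, adjusted p of 0.0132 in limma). Both remained lower without the C17.2a 24 h pair, at -1.43 (SE 0.22) and -0.53 (SE 0.10). The shares of all genes tested were 4.09% higher and 2.35% lower, and 9.14% and 5.81% without that pair.

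Ptprz1 had 15.22, 11.78 and 7.29 RPM in C17.2b with T3 at 6, 12 and 24 h, against 20.22, 19.37 and 9.63 RPM untreated. In C17.2a it had 1.59, 1.63 and 1.19 RPM with T3, or 16, 23 and 10 implied tags, against 3.48, 1.60 and 1.63 RPM untreated, or 45, 18 and 16 implied tags. It was lower with T3 in 5 of 6 pairs, with a log2 fold change of -0.41 (SE 0.14, adjusted p of 0.153 in limma), and -0.44 without the C17.2a 24 h pair (adjusted p of 0.0511). Of the ligands and partners of Ptprz1, 6 were tested, and 0 rose and 1 fell, against 1 and 1 without the C17.2a 24 h pair. The shares of all genes tested were 4.09% higher and 2.35% lower, and 9.14% and 5.81% without that pair. The gene that fell was Tnc, for the matrix protein tenascin, at -1.39 (SE 0.19, adjusted p of 0.00347 in limma). Its levels were 42.56, 34.80 and 93.91 RPM in C17.2b with T3 and 18.09, 16.77 and 37.22 RPM in C17.2a with T3, against 68.88, 103.50 and 268.16 RPM and 34.41, 47.17 and 184.13 RPM untreated.

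**Figure D2:**
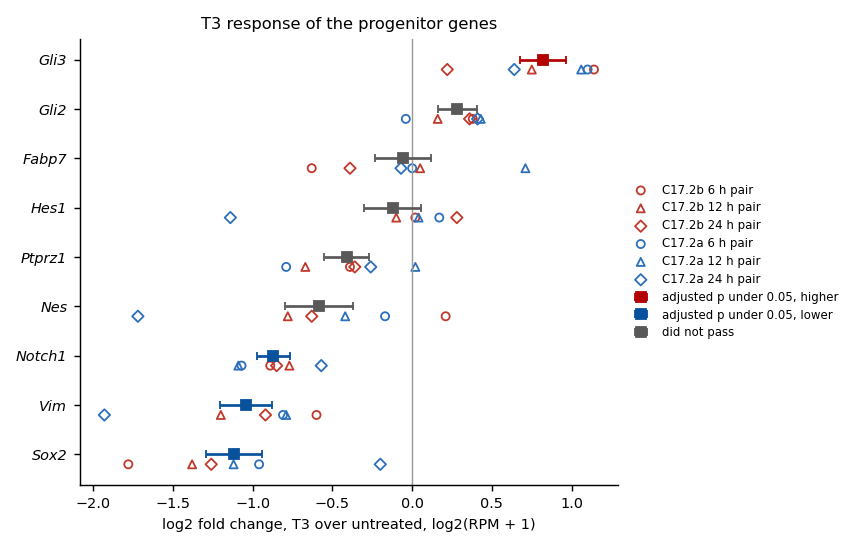
Log2 fold change of T3 over untreated for each gene on the log2(RPM + 1) scale. Squares and bars are the limma estimate from 6 pairs and its SE, red where higher and blue where lower at an adjusted p under 0.05 and grey where not passed, and open symbols are the single pairs; the C17.2a 24 h pair lies lowest of the 6 for Vim, Nes and Hes1, and highest for Sox2 and Notch1.

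Among 40 other genes of progenitors and radial glia, 23 were tested, and 1 rose and 3 fell in limma, where 4.09% of all genes tested were higher and 2.35% lower. Without the C17.2a 24 h pair 3 were higher and 4 lower, Zbtb20, Tnc, Hmga2 and Msi2 among them. In that fit 9.14% of all genes were higher and 5.81% lower. Zbtb20, a zinc finger factor of developing cortex and astrocytes, rose by 1.42 (SE 0.16, adjusted p of 0.00134), with 15.64, 11.87 and 32.10 RPM in C17.2b with T3 and 10.04, 11.89 and 10.50 RPM in C17.2a with T3, against 4.29, 2.69 and 13.16 RPM and 5.72, 3.46 and 2.86 RPM untreated. Besides Tnc, the genes that fell were Hmga2, a chromatin protein of young progenitors, at -0.84 (SE 0.21, adjusted p of 0.0491), and Msi2, an RNA-binding protein of progenitors, at -0.46 (SE 0.11, adjusted p of 0.0345). Hmga2 had 9.15, 6.29 and 5.33 RPM in C17.2b with T3 and 12.72, 14.51 and 12.29 RPM in C17.2a with T3, against 22.68, 20.99 and 14.65 RPM and 16.16, 16.61 and 16.64 RPM untreated. Its log2 fold change was -1.37 (SE 0.16, adjusted p of 0.00495 in limma) in C17.2b and -0.30 (SE 0.16, adjusted p of 0.382) in C17.2a, and the difference of -1.07 (SE 0.23) did not pass (adjusted p of 0.722). Sox9, Id1 and Id3, regulators of the progenitor state, had log2 fold changes of 0.22 (SE 0.15), -0.23 (SE 0.23) and 0.26 (SE 0.11) and did not pass. The median of this list was -0.08, against -0.01 for all genes tested.

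**Figure D3:**
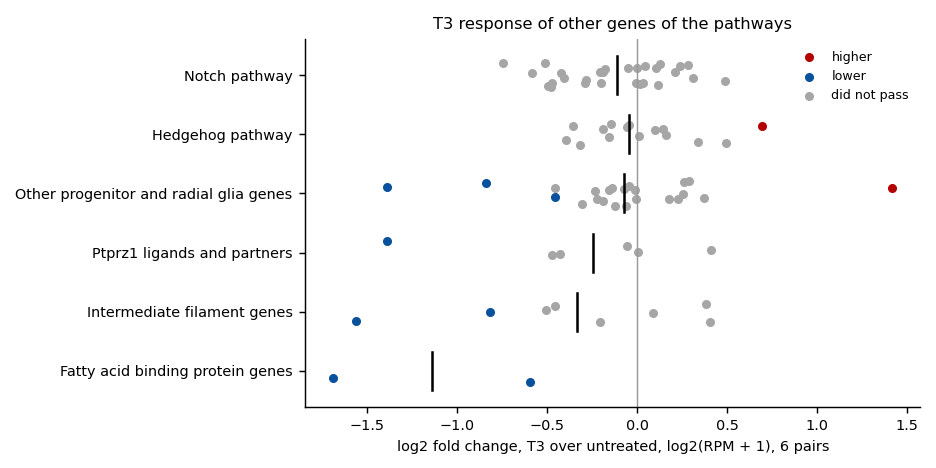
Log2 fold change with T3 over 6 pairs, on the log2(RPM + 1) scale, of other genes of the pathways, 1 point per gene tested and with no axis meaning to the vertical scatter within a list. Red and blue points passed an adjusted p of 0.05 as higher or lower, grey points did not, and black bars are the medians, from -0.04 for the hedgehog list to -1.14 for the 2 fatty acid binding protein genes; Tnc stands in 2 lists.

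With a T3 term for each line in 1 fit of the 6 pairs, fewer of the 9 genes passed. Both lines shared 1 estimate of the spread in that fit, so each SE also reflects the pairs of the other line. In C17.2b, Sox2 changed by -1.47 (SE 0.20, n = 3 pairs, adjusted p of 0.00703 in limma) and Notch1 by -0.84 (SE 0.15, adjusted p of 0.0246), so that 0 were higher and 2 lower, where 2.25% of all genes were higher and 0.86% lower. In C17.2a, Notch1 changed by -0.91 (SE 0.15, n = 3 pairs, adjusted p of 0.032), so that 0 were higher and 1 lower, where 0.908% of all genes were higher and 0.463% lower. Without any 1 pair of C17.2b neither Sox2 nor Notch1 passed in that line (adjusted p of 0.058 to 0.206 in limma), while the log2 fold changes stayed at -1.32 to -1.58 for Sox2 and -0.81 to -0.87 for Notch1. The C17.2a call of Notch1 was lost without the 6 h or 12 h pair of that line or any 1 pair of C17.2b (adjusted p of 0.087 to 0.179 in limma), at log2 fold changes of -0.82 to -0.91. With median-ratio scaling Vim passed in both lines (adjusted p of 0.0473 in C17.2b and 0.0441 in C17.2a in limma), and Notch1 no longer passed in C17.2a (0.0706). Without the C17.2a 24 h pair, Sox2, Vim, Notch1 and Gli3 passed in each line. In a fit of C17.2b alone, with 2 residual degrees of freedom, as many of the 9 genes passed as over the 6 pairs. There, 730 of all 10169 genes tested were higher and 356 lower. From C17.2a alone none of the 9 passed, with 11 genes higher and 1 lower of 10141.

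The T3 response did not pass a test of difference between lines or times for any of the 9 genes. Sox2 had the largest difference on the log2 scale, with a C17.2b response lower by a log2 difference of -0.71 (SE 0.28, 95% interval -1.35 to -0.08, adjusted p of 0.722 in limma). The median of this difference over all genes was 0.12 with the deposited RPM and -0.005 after median-ratio scaling. The response of Notch1 differed by 0.07 (SE 0.22, 95% interval -0.43 to 0.57). Between 24 h and 6 h, the response of Nes differed by -1.20 (SE 0.38, 95% interval -2.10 to -0.29, adjusted p of 0.726 in limma). At an unadjusted p under 0.05 there was 1 gene of the 9 in each of these 2 tests, where 0% of all genes passed after adjustment, with 583 and 593 of 10577 genes at that unadjusted level.

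Single pairs were not tested and are given by size. At least 2-fold lower with T3 were Notch1 and Ptprz1 in the C17.2a 6 h pair, Sox2 and Notch1 in the C17.2a 12 h pair, and Nes, Vim and Hes1 in the C17.2a 24 h pair, where the shares of all genes that low were 1.95%, 1.24% and 19.9%. In C17.2b they were Sox2 at 6 h, Sox2 and Vim at 12 h, and Sox2 at 24 h, with shares of 2.11%, 1.81% and 1.95%. Gli3 was at least 2-fold higher at 6 h in both lines and at 12 h in C17.2a, where the shares of all genes that high were 3.46% in C17.2b at 6 h and 2.2% and 2.81% in C17.2a at 6 and 12 h. No gene of the 9 was that high in C17.2b at 12 h, C17.2b at 24 h or C17.2a at 24 h, with shares of 3.39%, 5.1% and 6.66%. No other of the 9 genes reached 2-fold higher in any pair.

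Without T3, the lines differed most in Ptprz1 and Fabp7, both higher in C17.2b. Ptprz1 was 5.31-fold and Fabp7 4.06-fold higher in C17.2b on the log2(RPM + 1) scale, Sox2 was 1.52-fold higher, and Gli2 had a fold of 0.515. Of the 9 genes 3 were higher and 1 was lower in C17.2b in limma, where 2.93% of all 10192 genes tested were higher and 5.92% lower. With median-ratio scaling in place of the deposited RPM, 344 genes were higher and 444 lower over all genes, against 299 and 603, and the same 4 of the 9 genes passed. The comparison rests on 3 times with 2 residual degrees of freedom. The untreated libraries also serve the T3 comparison, so the line and T3 values are not independent.

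Ptprz1 had 20.22, 19.37 and 9.63 RPM in untreated C17.2b at 6, 12 and 24 h, against 3.48, 1.60 and 1.63 RPM in untreated C17.2a, and no value of one line reached those of the other. Its log2 fold change was 2.41 (SE 0.22, n = 3 times, adjusted p of 0.000258 in limma). In the T3 libraries, which that test did not use, the ratio of C17.2b to C17.2a was 9.57, 7.23 and 6.13 at 6, 12 and 24 h. The implied tags in C17.2a were few, and the lowest level was 1.19 RPM at 24 h with T3. Its Poisson 95% interval, from the implied tags, was 0.57 to 2.19 RPM, for counting error only.

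Fabp7 had 22.10, 14.26 and 13.56 RPM in untreated C17.2b, against 5.57, 1.87 and 3.06 RPM in untreated C17.2a, with no overlap. Its log2 fold change was 2.02 (SE 0.20, adjusted p of 0.000344 in limma), and with T3 the ratio of C17.2b to C17.2a was 2.50, 4.02 and 3.53 at the 3 times. Its promoter is shown because, besides that of Sox2, it was the one of 8 promoters with matches among the 4 motifs, a half-site in reverse orientation, TGACCT, at position -171 from the start and an RBPJ core in reverse orientation, TTCCCA, at position -249.
Fabp7, chr10:57784673-57784972, plus strand: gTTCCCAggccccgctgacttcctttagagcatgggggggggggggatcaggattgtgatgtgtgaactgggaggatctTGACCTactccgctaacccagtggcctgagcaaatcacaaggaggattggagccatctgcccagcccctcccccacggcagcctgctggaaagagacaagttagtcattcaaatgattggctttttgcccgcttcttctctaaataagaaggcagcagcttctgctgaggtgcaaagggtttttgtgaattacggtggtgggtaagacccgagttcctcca

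Sox2 was 1.44 to 1.65 times as high in untreated C17.2b as in untreated C17.2a over the 3 times, with a log2 fold change of 0.61 (SE 0.12, adjusted p of 0.0121 in limma). With T3 the ratio was 0.93, 1.25 and 0.69, so the line with the higher level varied between times. Gli2 was lower in untreated C17.2b at all 3 times, with a log2 fold change of -0.96 (SE 0.19, adjusted p of 0.0142), and with T3 its ratio of C17.2b to C17.2a was 0.51, 0.43 and 0.45. Notch1 was higher in untreated C17.2b at all 3 times but did not pass (0.33, SE 0.14, adjusted p of 0.177). Without the 6 h libraries the calls of Sox2 (adjusted p of 0.0922) and Gli2 (0.113) were lost in limma, and without a time block none of the 4 passed.

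**Figure D4:**
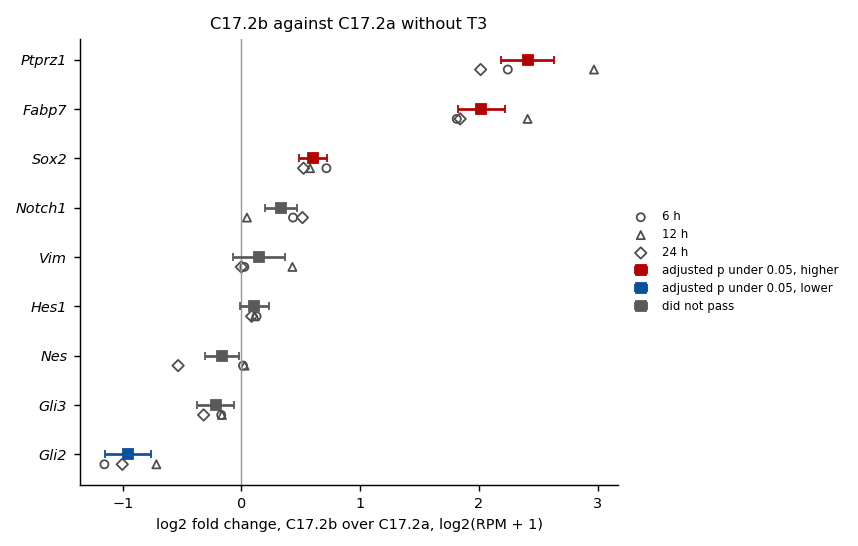
Log2 fold change of untreated C17.2b over untreated C17.2a for each gene on the log2(RPM + 1) scale. Squares and bars are the limma estimate over 3 times and its SE, coloured red where higher and blue where lower at an adjusted p under 0.05, and open symbols are the single times; Ptprz1 and Fabp7 lie between 1.8 and 3.0 at every time and Gli2 is below 0 at every time.

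Other progenitor genes differed between the untreated lines in both directions. Of 21 tested 3 were higher and 4 lower in C17.2b in limma, where 2.93% of all genes tested were higher and 5.92% lower. Prom1, for a membrane protein of neural stem cells, was higher at 1.16 (SE 0.23, adjusted p of 0.0137), although its level was 129.01 RPM in C17.2b at 6 h and 48.43 and 43.68 RPM at 12 and 24 h, against 31.62, 34.02 and 21.64 RPM in C17.2a. Tnc (0.88, SE 0.14) and the integrin gene Itga6 (0.75, SE 0.18) were also higher. The growth factor receptor genes Fgfr2 (-2.15, SE 0.22) and Egfr (-0.77, SE 0.20), the surface protein gene Cd24a (-1.44, SE 0.13) and N-cadherin (Cdh2, -0.50, SE 0.12) were lower, with adjusted p of 0.000273 to 0.0429 for these 7 genes in limma.

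In the same comparison 2.93% of all genes tested were higher and 5.92% lower, and 0 of 28 Notch pathway genes were higher and 3 lower: Notch4 at -0.81 (SE 0.18), Dtx4, a ubiquitin ligase gene of the pathway, at -0.76 (SE 0.14) and Lfng at -0.66 (SE 0.18), with adjusted p of 0.00859 to 0.0444 in limma. Of 15 hedgehog pathway genes 0 were higher and 1 was lower, Cdon at -1.54 (SE 0.21, adjusted p of 0.00183). Lmnb1, for lamin B, was the 1 intermediate filament gene of 8 that was higher (0.68, SE 0.12, adjusted p of 0.00732), and 0 were lower. Fibroblast markers summed to 2647 to 4593 RPM in untreated C17.2b and to 4967 to 8120 RPM in untreated C17.2a, without overlap, for 5 of 6 markers listed. Markers of the oligodendrocyte lineage summed to 416 to 865 RPM and 317 to 645 RPM, and neuronal markers to 119 to 367 RPM and 97.1 to 213 RPM. The part of any other cell type in the line differences was not tested.

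Without T3, 7 of the 9 genes differed between 24 h and 6 h, but so did much of the transcriptome. Time without serum, time in culture and handling of single libraries cannot be told apart in this comparison. Between 24 h and 6 h, 4 of the 9 genes were higher and 3 lower in limma, where 43% of all 10192 genes tested were higher and 13.1% lower. The median log2 fold change of all genes tested was 0.40, and that of the 9 genes was 0.29. With median-ratio scaling the median of all genes was -0.03, and 2434 genes were higher and 2719 lower, against 4384 and 1336 with the deposited RPM.

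Nes had the largest rise of the 9, 4.78-fold on the log2(RPM + 1) scale, and ranked 77 by p among all genes tested. At 24 h it stood at 443.14 RPM in untreated C17.2b, 3.98 times its 6 h level, and at 641.71 RPM in untreated C17.2a, 5.82 times. Its log2 fold change was 2.26 (SE 0.17, n = 2 lines, adjusted p of 2.08e-05 in limma), or 1.77 after median-ratio scaling. Gli2 rose by 1.18 (SE 0.24), or 0.78 after scaling. Vim rose by 1.07 (SE 0.27) and Gli3 by 0.73 (SE 0.19), and both calls were lost after scaling (0.58 and 0.27, adjusted p of 0.0755 and 0.217 in limma).

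Sox2, Fabp7 and Ptprz1 were lower at 24 h. Sox2 changed by -0.93 (SE 0.15, adjusted p of 0.000518 in limma), or -1.41 after median-ratio scaling, and the ratio of its untreated level of 24 h to that of 6 h was 0.489 in C17.2b and 0.559 in C17.2a. Ptprz1 changed by -0.88 (SE 0.27, adjusted p of 0.0184) and Fabp7 by -0.68 (SE 0.24, adjusted p of 0.0334), or -1.26 and -1.09 after scaling. Hes1 changed by -0.37 (SE 0.15) and did not pass (adjusted p of 0.0579), but passed after scaling at -0.85 (adjusted p of 0.00221 in limma). Notch1 was at 0.29 (SE 0.17, adjusted p of 0.166 in limma) and at -0.19 after scaling. Neuronal markers summed to 213 to 367 RPM at 24 h and 97.1 to 119 RPM at 6 h in untreated cells. Tubb3 and Mtap2 were higher at 24 h in both lines, but Snap25, at low levels, was lower in both. The neurofilament genes Nefm (-0.82, SE 0.245) and Nefl (-0.91, SE 0.253) were also lower. Astrocyte markers summed to 188 to 191 RPM at 24 h and 247 to 273 RPM at 6 h. Those of the oligodendrocyte lineage summed to 317 to 416 RPM and 645 to 865 RPM, and those of fibroblasts to 4593 to 8120 RPM and 2647 to 4967 RPM. Their part in the time results was not tested.

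Each gene's variation over the 12 libraries was divided into the parts that go with T3, line and time, as a description with no test. T3 held the largest part for Notch1 (65.5% of the sum of squares of log2(RPM + 1)), Sox2 (65.1%), Gli3 (64.5%) and Vim (53.9%). Line held the largest part for Ptprz1 (88.9%) and Fabp7 (84.7%), and time for Nes (79.1%) and Gli2 (55.4%, with 39.6% for line). Hes1 had its largest part, 47.5%, outside the 3 factors. Over all 10577 genes tested the medians were 3.4% for T3, 4.6% for line and 48.7% for time.

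**Figure D5:**
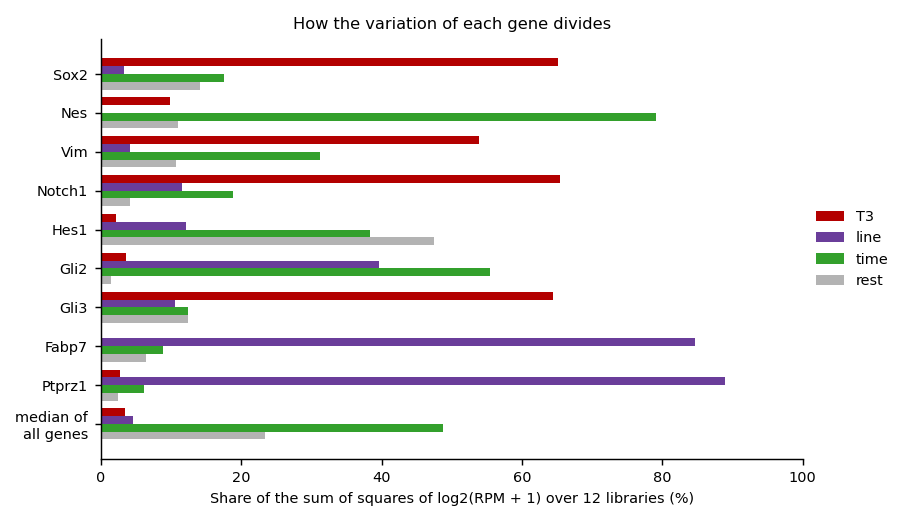
Share, in percent, of the sum of squares of log2(RPM + 1) over 12 libraries that goes with T3, line, time and the rest, for each gene and as the median over all genes tested. The T3 bar is the longest for Sox2, Vim, Notch1 and Gli3, the line bar for Fabp7 and Ptprz1, and the time bar for Nes, Gli2 and the median gene.

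Patterns over the 12 libraries were compared by the root-mean-square difference between centred log2(RPM + 1) values, among genes with a mean of at least 5 RPM. Among the 9 genes, Vim and Notch1 were the closest to each other (0.369), followed by Fabp7 and Ptprz1 (0.448), Nes and Vim (0.537), Sox2 and Notch1 (0.594) and Gli2 and Gli3 (0.596). A gene that did not vary would lie 0.539 from Notch1 and 0.51 from Gli3. Sox2 was thus farther from Notch1, and Gli2 from Gli3, than such a gene, so these 2 distances show no shared pattern. Among all genes so compared, those most like Sox2 were Capn6 (0.263), Gcnt1 (0.281) and Narg2 (0.297). Those most like Notch1 were Ncald (0.214), Cand2 (0.22) and Syt11 (0.227), those most like Vim were Postn (0.189), Rnf150 (0.212) and Shf (0.236), and those most like Gli3 were Spsb1 (0.231), Apbb2 (0.234) and Skil (0.235). For Nes they were Sfi1 (0.238), Ap2a2 (0.245) and Plscr3 (0.248), for Hes1 Heatr3 (0.13), Pdia4 (0.143) and Farsa (0.163), and for Gli2 Ifi47 (0.199), Cd38 (0.21) and Ikbke (0.211). Fabp7 had Mapt (0.427), Ptprz1 (0.448) and Alcam (0.471). For Ptprz1 they were Mark1 (0.3), Cyfip2 (0.367) and Fabp7 (0.448). A difference of 0 would mean the same pattern, and the distance is a description of these 12 libraries.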

How the data were processed

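The authors deposited 1 table of RPM for 12 libraries, from digital gene expression, in which short tags stand for transcripts, per the series title. The unit was read from the values, whose columns add up to nearly the same total. The submitters' processing notes name mm9; aligner, tag-to-gene rule and filters: not given in the sources used here. N/A was read as 0. Of the values up to 2 RPM, 90.0% to 93.8% were whole multiples of the value of 1 tag (tolerance 0.0055 RPM). Tag counts could therefore not be rebuilt exactly, and the test was run on logs of RPM only. Implied tags are estimates, the RPM times the implied depth, rounded.

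A gene was kept if 3 or more libraries of the fit had 1 RPM or more, and log2(RPM + 1) was tested in limma 3.58.1 (R 4.3.3) with a trend, tested on simulated data. T3 was tested with each line and time pair as a block, lines with time and times with line as a block. Members and lists were chosen with earlier results of these data known. Named were all 9 genes, list members past 0.05 (up to 8 per list) for T3 or untreated lines, and the 3 genes most like a member. Dll1, Notch2, Rbpj, Hey1, Gli1, Smo, Sox9, Id1 and Id3 were named for their role. Genes of the lists that are not counted as tested were not analysed here or had low values. Alternatives were pseudocounts of 0.5 and 5, no filter, a filter at 5 RPM, median-ratio scaling, no block, 1 line alone, and leaving out each pair or time.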

Additional observations from a re-analysis of the deposited data

Results flagged for a closer look

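Hes1 stood out for 1 pair. Its log2 ratio of T3 over untreated was -1.14 in the C17.2a 24 h pair, against -0.10 to 0.28 in the other 5 pairs, a gap of 0.734 of the whole range, above Dixon's 95% critical value for 6 values. By chance about 1 in 20 such sets would be picked out, and 9 genes were examined. The same library was low for Lfng, and 19.9% of all genes with at least 50 implied tags were at least 2-fold lower with T3 in that pair; the part of this in the Hes1 value was not tested.

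Fabp7, which passed no test of T3, had ratios of opposite sign at 2 times. Its level was above the untreated one with T3 at 12 h in both lines (log2 ratio 0.05 in C17.2b and 0.71 in C17.2a) and below it at 24 h in both (-0.39 and -0.07), a mean difference of -0.61 between 24 h and 12 h. The C17.2b value of 12 h and the C17.2a value of 24 h lay next to the medians of all genes in those pairs, 0.058 and -0.079. This difference was not tested, and the C17.2a 12 h ratio rests on 52 implied tags with T3 and 21 untreated.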

How the results depend on the processing

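For T3 over 6 pairs, 4 of the 9 genes passed in the fit as reported and 4 to 4 with any 1 pair left out, and 3 with no pair block. In C17.2a 1 gene passed, against 0 with no pair block, 0 from this line alone and 0 to 4 with a pair left out. In C17.2b 2 passed (3 with median-ratio scaling), against 0 with no pair block, 4 from this line alone and 0 to 4 with a pair left out. For the difference between lines the count was 0 in each alternative run. For 24 h minus 6 h it was 0, and 4 without the C17.2b 24 h pair, which leaves the C17.2a pair alone at 24 h and gave 3342 calls over all genes (0 in the fit as reported, 76 without the C17.2a 24 h pair). A lone pair was assumed to vary like the others. For the untreated lines 4 passed, against 0 with no time block and 2 to 4 with a time left out. For 24 h against 6 h without T3 7 passed, against 3 with no line block. The cause of these changes was not tested. Over all genes, the T3 call count of 682 was 240 with no pair block and 319 to 1554 with a pair left out. In C17.2a 145 became 28 with no pair block, 12 from this line alone and 32 to 462 with a pair left out, and in C17.2b 329 became 86, 1086 and 39 to 1178. Between the lines 902 became 1 with no time block and 404 without 6 h. Of 700 values of single genes under these alternatives, 656 kept their side of the threshold, 30 lost a call, 14 gained one and 0 called values changed sign. No paired analysis by replicate number was possible because the labels carry none. Pairs of line and time took that place. Depth limits Ptprz1 (10 to 45 implied tags per library) and Fabp7 (21 to 72) in C17.2a and Gli2 in C17.2b (22 to 49).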
